A study of Homo sapiens with 6 samples.

Results

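The genes described here are 34 parts of the machinery that starts, carries out or restrains programmed cell death. They comprise 13 TNF receptor superfamily genes, 5 adaptor and signaling genes, 5 caspases, 2 genes that act at or after the mitochondria, 5 inhibitor of apoptosis (IAP) genes, 2 IAP antagonists and 2 necroptosis genes. They were picked by gene symbol from the 28395 genes of the count table, the BCL2 family was left out, and 30 of the 34 had enough reads to be tested.

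Apoptosis can begin at the cell surface or inside the cell. In the extrinsic pathway a ligand such as FAS ligand or TRAIL gathers its receptor, the adaptor FADD binds the death domain of the receptor and brings in procaspase-8, and active caspase-8 cleaves the executioner caspases. In the intrinsic pathway cytochrome c leaves the mitochondria and assembles APAF1 and caspase-9 into the apoptosome, while IAP proteins restrain caspases and receptor signaling until DIABLO or HTRA2 binds them. Caspase-8 is known to be low or silent in many small-cell lung cancer (SCLC) cell lines.

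RNA was sequenced from NCI-H146 (H146), an established SCLC cell line whose genotype is labeled WT, on day 2 after transfection. Cells received either a negative control siRNA (control siRNA, 3 libraries) or an siRNA against *KIFC1* (siKIFC1, 3 libraries). *KIFC1* encodes a kinesin motor that gathers extra centrosomes into spindle poles, and the comparison asks which transcripts differ once it is depleted. The libraries come from 1 cell line and 1 *KIFC1* siRNA, so the loss of *KIFC1* and any other action of that siRNA cannot be told apart. The labels call the libraries biological replicates without naming separate cultures, and the p-values then measure only the spread between these libraries. In bulk RNA, fewer cells that express a gene and less RNA per cell cannot be told apart either.

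Total counts ran from 15392374 to 17754458 per library, and mitochondrial genes took from 8.34% to 13.1% of them. Of the neuroendocrine markers, *INSM1*, *NCAM1*, *SYP* and *CHGB* had at least 1318 counts in every library, whereas *CHGA* had 104 to 147 counts in the control libraries and *NEUROD1* 0 to 5 in all libraries. *NCAM1* was lower in each siKIFC1 library, by -0.42 on the log2 scale. Among 7 immune, stromal and endothelial markers, *CD3E* had 0 to 3 counts and *PECAM1* 4 to 7, *CD68*, *PTPRC* and *COL1A1* had 17 to 59, *VWF* had 64 to 80 and *COL1A2* 113 to 197. *KIFC1* itself was counted 14, 4 and 14 times in the control libraries and 1, 1 and 0 times in the siKIFC1 libraries, which is at least 3.13-fold lower against a floor of 3 counts per library. Its adjusted p was 0.0739 by Benjamini-Hochberg in edgeR's quasi-likelihood test and 0.00459 once the replicate number entered the test as a block. Copies of the *KIFC1* sequence elsewhere in GRCh38 were not sought, and their part in these low counts was not tested. The study itself reported the knockdown in SCLC cells by RT-qPCR and by immunoblotting.

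Levels at baseline are given as CPM (counts scaled to library size by the TMM method) per kilobase of the canonical transcript, since only values per length can be set side by side between genes. The length is that of 1 transcript per gene, and which transcripts these cells use was not tested. Among the receptors, *TNFRSF21* (death receptor 6) had the highest level in the control libraries, at 40.7 ± 2.65 CPM per kb (SD, n = 3). *TNFRSF1A*, the main receptor for TNF, stood at 24 ± 0.848 CPM per kb and *TNFRSF25* (death receptor 3) at 13.2 ± 1.93 CPM per kb. These 3 receptors did not overlap one another between libraries.

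The receptors of TRAIL and FAS ligand were present at lower levels. *TNFRSF10B* and *TNFRSF10A*, which encode the TRAIL receptors with a death domain, stood at 5.86 ± 0.963 and 5.06 ± 1.30 CPM per kb (SD, n = 3), a difference within their spread. The decoy receptors *TNFRSF10C* and *TNFRSF10D* had 1.68 ± 0.125 and 0.391 ± 0.114 CPM per kb. *FAS* stood at 3.32 ± 0.749 CPM per kb and overlapped *TNFRSF19* (2.99 ± 0.455 CPM per kb), a receptor without a death domain. Also under 1 CPM per kb were *TNFRSF12A* (the TWEAK receptor, 0.756 ± 0.302), *TNFRSF18* (GITR, 0.434 ± 0.163) and *TNFRSF1B* (the second TNF receptor, 0.379 ± 0.0209), in the same unit.

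Downstream of the receptors, the adaptors *FADD* and *TRAF2* had 22.3 ± 0.998 and 22.3 ± 2.94 CPM per kb (SD, n = 3) in the control libraries. *RIPK1*, the kinase of the TNF receptor complex, followed at 6.77 ± 0.150 CPM per kb, *CFLAR*, which encodes the caspase-8 inhibitor FLIP, at 4.23 ± 0.311 and *TRADD* at 2.15 ± 0.377. The place of *CFLAR* depends on its long canonical transcript of 14.6 kb. Before division by length it had 61.8 ± 4.55 CPM, against 27.7 ± 0.614 CPM for *RIPK1*. The caspases spanned a wide range. *CASP2* (18.2 ± 0.779 CPM per kb) and the executioner *CASP6* (16.2 ± 1.31) led, *CASP9*, the initiator of the intrinsic pathway, had 4.18 ± 0.121, and *CASP8*, the initiator of the extrinsic pathway, had 0.851 ± 0.241.

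*CFLAR*, *CASP10* and *CASP8* lie next to each other on chromosome 2 of GRCh38, at 201116154 to 201176687, 201182872 to 201229428 and 201233443 to 201361836. In that row *CASP10*, the closest relative of *CASP8*, was barely counted, with 2, 3 and 1 reads in the control libraries and 1, 3 and 2 in the siKIFC1 libraries. All 6 values lie at or under 3 counts, and no fold change is given.

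Of the mitochondrial arm, *DIABLO* (37.2 ± 3.12 CPM per kb; SD, n = 3) and *HTRA2* (15.1 ± 0.518) were higher at baseline than *APAF1* (5.96 ± 0.538) and *MOAP1* (0.341 ± 0.0259), which encodes a binding partner of BAX. Among the 5 IAP genes of the set, *BIRC2* (9.74 ± 0.879 CPM per kb), *XIAP* (9.35 ± 0.630), a direct inhibitor of caspases, and *BIRC6* (9.22 ± 1.64) overlapped one another. *BIRC3* (0.534 ± 0.0397 CPM per kb), which lies beside *BIRC2* on chromosome 11, was well below them, and *NAIP* (0.0978 ± 0.0420) was lower still.

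The executioner of necroptosis, *MLKL*, had 0.983 ± 0.0520 CPM per kb (SD, n = 3) in the control libraries. Its upstream kinase *RIPK3* had 0 counts in each control library and 1, 0 and 0 counts with siKIFC1. *EDA2R*, the ectodysplasin A2 receptor, had 0 counts in all 6 libraries. A count of 0 allows up to 3 counts, or 0.163 to 0.198 CPM in these libraries, and that limit covers counting error only. The plot of levels in each library sets out these ranges.

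**Figure D1:**
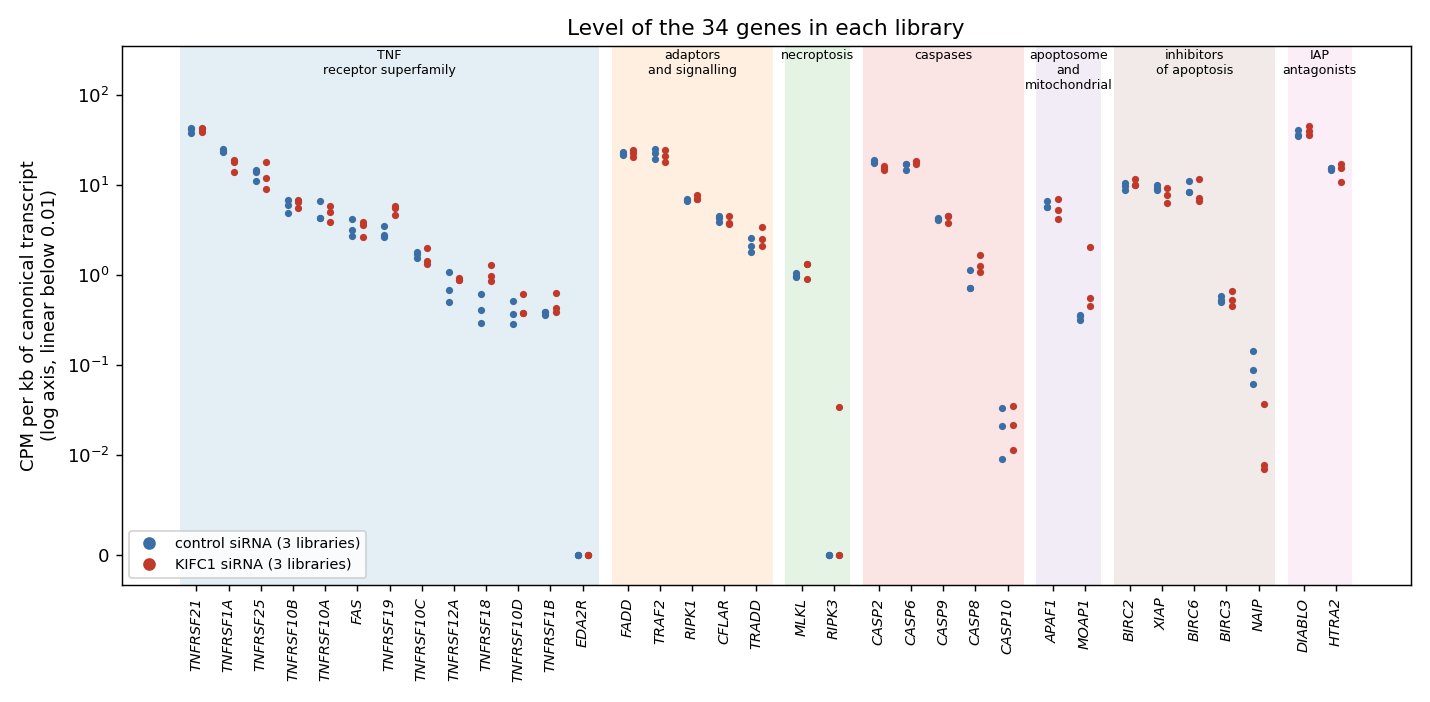
Level of each of the 34 genes in CPM per kb of canonical transcript on a log axis that is linear below 0.01, with 1 point per library (blue, control siRNA; red, siKIFC1) and genes grouped by role. *TNFRSF21* and *DIABLO* sit at the top, *RIPK3* and *EDA2R* at or near 0, and the red and blue points of most genes overlap.

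Most of the 30 tested genes differed little between the groups. On the log2 scale, 21 of the 30 (70.0%) had a fold change within ±0.25, against 76.8% of all 14777 genes tested. Their median log2 fold change was 0.043, against 0.01 over all genes tested, with 19 of the 30 above 0. *TNFRSF18* and *TNFRSF12A* passed the filter on low counts through more siKIFC1 than control libraries, and *NAIP* did not pass it, so the 30 genes are not the whole set.

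By Benjamini-Hochberg in edgeR's quasi-likelihood test, 1 of the 30 genes, *TNFRSF19*, had an adjusted p under 0.05, against 0.697% of all genes tested. When the replicate number was entered as a block, the calls were *TNFRSF19*, *TNFRSF1A* and *MOAP1*, or 3 of the 30, against 5.83% of all genes. At an unadjusted p under 0.05, 4 genes were higher with siKIFC1 (*CASP8*, *MOAP1*, *TNFRSF18* and *TNFRSF19*), against 4.72% of all genes, and 2 were lower (*CASP2* and *TNFRSF1A*), against 4.55%. Without siKIFC1 replicate 3, these counts were 2 and 6, against 8.63% and 9.93% of all genes tested in that fit. Without control replicate 1 or 2, only 1 gene was lower, against 3.88% and 3.16%. The scaled CPM of the groups did not overlap for 4 genes that were higher (*CASP6*, *MOAP1*, *TNFRSF18* and *TNFRSF19*), against 7.99% of all genes, and for 2 that were lower (*CASP2* and *TNFRSF1A*), against 7.52%. For *CASP6* the nearest libraries of the groups had equal values after rounding. *TNFRSF19*, *CASP8*, *TNFRSF18*, *MOAP1* and *NAIP* are among the genes that the study itself listed as differing in these libraries, so their direction is no independent evidence about the set.

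**Figure D2:**
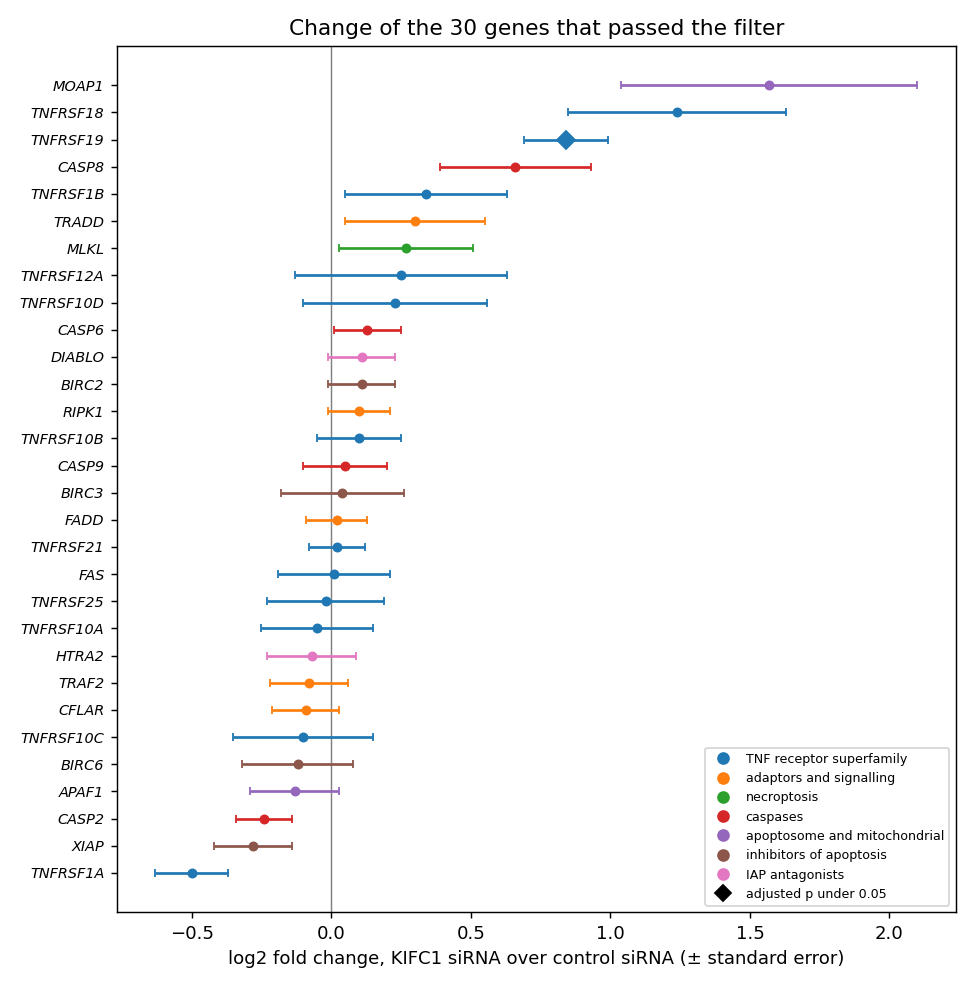
Log2 fold change (siKIFC1 over control siRNA, point) and standard error (bar) of the 30 genes that passed the filter on low counts, colored by role, with a diamond for an adjusted p under 0.05 in edgeR. *MOAP1*, *TNFRSF18*, *TNFRSF19* and *CASP8* lie to the right at 0.66 or more, *TNFRSF1A* lies at -0.50, and *TNFRSF19* alone is a diamond.

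*TNFRSF19*, also called TROY, is a TNF receptor superfamily member expressed in epithelial and neural progenitors. It lies on chromosome 13 of GRCh38 from 23570370 to 23676104, and its exons overlap no other annotated gene. The control libraries held 197, 198 and 286 counts of it and the siKIFC1 libraries 326, 377 and 419. Each siKIFC1 library was above each control library, and the ratio of the scaled values was 1.76, 2.0 and 1.65 in replicates 1, 2 and 3. The level rose from 13.3 ± 2.02 CPM with control siRNA to 23.8 ± 2.59 CPM with siKIFC1 (mean ± SD, n = 3), by a log2 fold change of 0.84 ± 0.15 (SE; 95% interval 0.52 to 1.16), with an adjusted p of 0.0267 by Benjamini-Hochberg in edgeR's quasi-likelihood test. Leaving out control replicate 1, 2 or 3 or siKIFC1 replicate 2 raised the adjusted p in edgeR to 0.145, 0.178, 0.0588 and 0.0667, with log2 fold changes from 0.76 to 0.97. Over 14 alternatives, 10 kept the call, and the adjusted p in edgeR or DESeq2 ran from 4.05e-09 to 0.178. Per kilobase, *TNFRSF19* went from 2.99 ± 0.455 to 5.36 ± 0.583 CPM per kb, from below *TNFRSF10A* and *TNFRSF10B* into their range.

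*TNFRSF1A* was counted 900, 804 and 959 times in the control libraries and 613, 629 and 487 times in the siKIFC1 libraries. Each siKIFC1 library was below each control library, and siKIFC1 replicate 3 was the lowest. The mean was 52.2 ± 1.84 CPM with control siRNA and 36.8 ± 6.15 CPM with siKIFC1 (SD, n = 3), giving a log2 fold change of -0.50 ± 0.13 (SE; 95% interval -0.79 to -0.22). The adjusted p was 0.14 by Benjamini-Hochberg in edgeR's quasi-likelihood test, 0.00183 in the same test with the replicate block, 0.0215 without the filter on low counts and 0.0296 in DESeq2's Wald test. It passed 0.05 in 4 of 14 alternatives, with a range from 3.4e-05 to 0.493. For the second TNF receptor gene, *TNFRSF1B*, the counts were 24, 23 and 24 in the control libraries and 25, 35 and 23 in the siKIFC1 libraries, and its groups overlapped.

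*TNFRSF18*, a co-stimulatory receptor of lymphocytes better known as GITR, was counted weakly. The control libraries held 11, 5 and 8 counts of it and the siKIFC1 libraries 22, 16 and 15. All siKIFC1 libraries were above the control libraries, but 1 of the 3 control libraries and all 3 siKIFC1 libraries passed the count cutoff, so the gene had to differ to be tested. Its log2 fold change came to 1.24 ± 0.39 (SE), with an adjusted p of 0.257 by Benjamini-Hochberg in edgeR's quasi-likelihood test. With the replicate block it was 0.0631, the lowest of the alternatives, which reached up to 0.769.

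The receptors that carry the signals of TRAIL and FAS ligand differed by less than their error. *FAS* was counted 255, 158 and 213 times in the control libraries and 222, 147 and 216 times in the siKIFC1 libraries, a log2 fold change of 0.01 ± 0.20 (SE; 95% interval -0.42 to 0.44). *TNFRSF10B* had 322, 384 and 495 counts against 345, 418 and 425, a log2 fold change of 0.10 ± 0.15 (SE; 95% interval -0.22 to 0.43). For *TNFRSF10A* the counts were 193, 185 and 324 against 211, 159 and 254, a log2 fold change of -0.05 ± 0.20 (SE; 95% interval -0.49 to 0.39). In both *TNFRSF10A* groups replicate 3 was the highest library and the groups overlapped. Annotated genes on the opposite strand cover 16.7% of its exonic bases. Changes up to the ends of these intervals were not excluded.

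The decoy receptors *TNFRSF10C* and *TNFRSF10D* had log2 fold changes of -0.10 ± 0.25 (SE) and 0.23 ± 0.33 (SE). Of the exonic bases of *TNFRSF10C*, 33% are shared with 2 other annotated genes on its strand, so its reads could be split between them. *TNFRSF21*, the most abundant receptor per kilobase, was measured most precisely, with 2555, 2163 and 2754 counts against 2425, 2130 and 2449, a log2 fold change of 0.02 ± 0.10 (SE; 95% interval -0.20 to 0.24). *TNFRSF25* and *TNFRSF12A* had log2 fold changes of -0.02 ± 0.21 (SE) and 0.25 ± 0.38 (SE), with overlapping groups.

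None of the 5 adaptor and signaling genes passed the test at either threshold. *FADD* counts were 624, 640 and 677 in the control libraries and 655, 593 and 570 in the siKIFC1 libraries, a log2 fold change of 0.02 ± 0.11 (SE; 95% interval -0.23 to 0.27). An annotated gene on the opposite strand covers 59.2% of its exonic bases, and the strand setting of the counting is not given. *CFLAR* had 1048, 907 and 1206 counts against 866, 810 and 1070, a log2 fold change of -0.09 ± 0.12 (SE; 95% interval -0.35 to 0.17), and such opposite-strand genes cover 10.1% of its exonic bases. The log2 fold changes of *RIPK1*, *TRAF2* and *TRADD* were 0.10 ± 0.11 (SE), -0.08 ± 0.14 (SE) and 0.30 ± 0.25 (SE). *MLKL*, the executioner of necroptosis, had 43, 38 and 43 counts against 51, 34 and 54, and its groups overlapped.

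Among the caspases, *CASP8* and *CASP2* had an unadjusted p under 0.05, in opposite directions. For *CASP8*, the control libraries held 50, 30 and 35 counts and the siKIFC1 libraries 53, 44 and 72. Control replicate 1 lay above siKIFC1 replicate 2 after scaling, so the groups overlapped, and the ratio within replicates 1, 2 and 3 was 1.13, 1.54 and 2.31. The mean was 2.26 ± 0.640 CPM and 3.56 ± 0.771 CPM (SD, n = 3), giving a log2 fold change of 0.66 ± 0.27 (SE; 95% interval 0.07 to 1.25), with an adjusted p of 0.463 by Benjamini-Hochberg in edgeR's quasi-likelihood test. With the replicate block in the same test, the adjusted p was 0.108. Per kilobase *CASP8* was 0.851 ± 0.241 with control siRNA and 1.34 ± 0.290 CPM per kb with siKIFC1, below each of *CASP2*, *CASP6* and *CASP9* in both groups.

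*CASP2*, which acts in the PIDDosome and is linked to surveillance of extra centrosomes, had 1295, 1140 and 1361 counts with control siRNA. It had 993, 919 and 1071 counts with siKIFC1. Every siKIFC1 library was below every control library, and the ratio was 0.816, 0.848 and 0.885 in replicates 1, 2 and 3. The mean was 74.4 ± 3.19 CPM with control siRNA and 63.2 ± 2.53 CPM with siKIFC1 (SD, n = 3), giving a log2 fold change of -0.24 ± 0.10 (SE; 95% interval -0.46 to -0.01). The adjusted p was 0.498 by Benjamini-Hochberg in edgeR's quasi-likelihood test. With the replicate block it was 0.142, and it ran from 0.141 to 0.969 under the alternatives.

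The remaining caspases did not pass the test. *CASP6* had 462, 444 and 442 counts against 436, 446 and 486, a log2 fold change of 0.13 ± 0.12 (SE, 95% interval -0.13 to 0.38). After scaling the siKIFC1 libraries lay above the control libraries, but only just. Control replicate 2 and siKIFC1 replicate 1 both had 27.8 CPM after rounding. *CASP9* had 190, 193 and 216 counts against 201, 195 and 175, a log2 fold change of 0.05 ± 0.15 (SE).

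**Figure D3:**
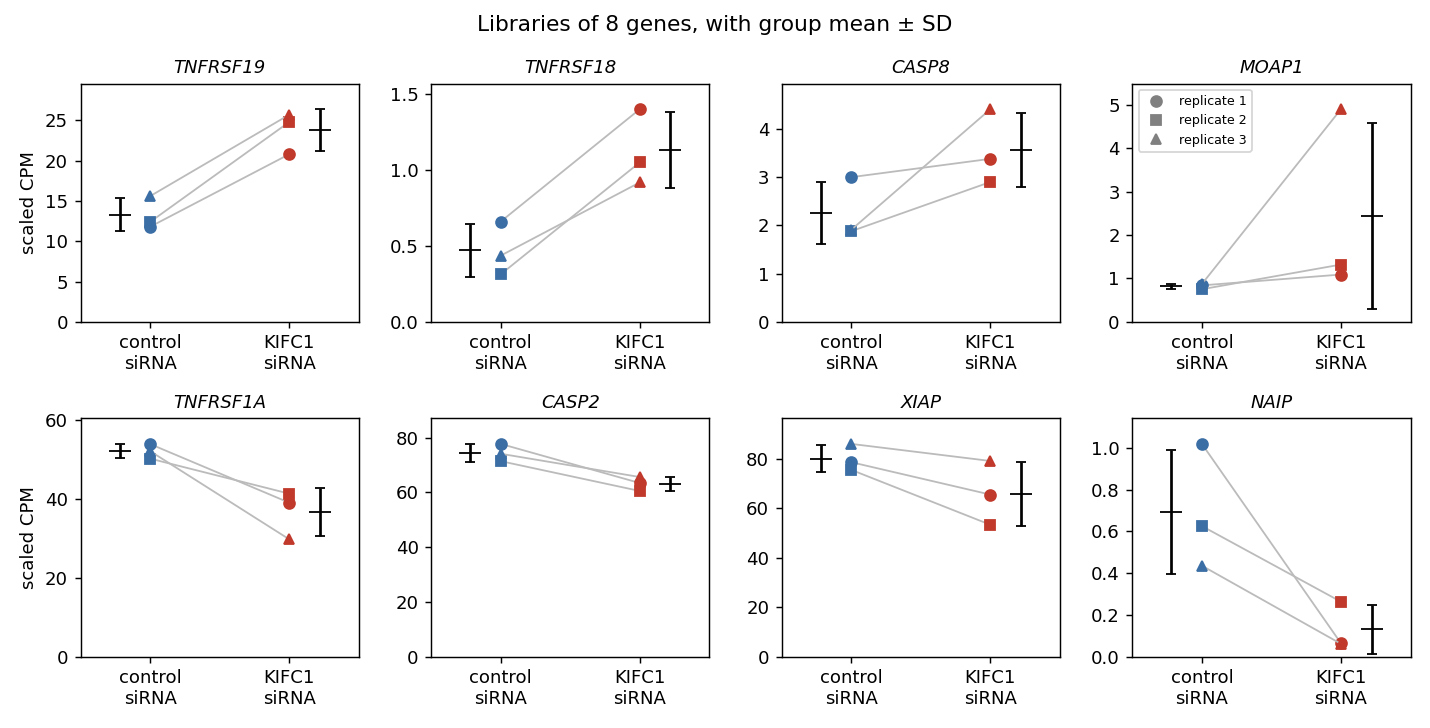
Scaled CPM of 8 genes in each library (blue, control siRNA; red, siKIFC1), with symbols for replicates 1 to 3, gray lines between libraries of the same number and a black bar for the group mean ± SD; each axis starts at 0. *TNFRSF19* is higher and *TNFRSF1A* and *CASP2* are lower in each siKIFC1 library, 1 library sets the mean of *MOAP1*, and the groups of *CASP8* and *XIAP* overlap.

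*MOAP1*, which links death receptors to BAX at the mitochondria, rested on 1 library. Counts were 14, 12 and 16 in the control libraries and 17, 20 and 80 in the siKIFC1 libraries. The siKIFC1 libraries were all above the control libraries, but replicate 3 stood far above the others, and the mean of 2.43 ± 2.14 CPM (SD, n = 3) had an SD near its own size. Its log2 fold change came to 1.57 ± 0.53 (SE), with an adjusted p of 0.313 by Benjamini-Hochberg in edgeR's quasi-likelihood test and of 0.0146 with the replicate block. Without siKIFC1 replicate 3, the log2 fold change was 0.54 and the adjusted p in edgeR 0.478. Over the alternatives the adjusted p ran from 0.000626 to 0.776 in edgeR. Of the 32-base words of the *MOAP1* transcript, 97.6% also occur on alternate sequences of GRCh38, and their part in the result was not tested. *APAF1* had 675, 652 and 870 counts against 597, 455 and 813, a log2 fold change of -0.13 ± 0.16 (SE).

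*XIAP* counts were 1309, 1206 and 1579 in the control libraries and 1025, 809 and 1292 in the siKIFC1 libraries. Each siKIFC1 library was below the control library of the same number, with ratios of 0.833, 0.706 and 0.92, but siKIFC1 replicate 3 lay above the lowest control library. The mean was 80.0 ± 5.39 CPM with control siRNA and 65.9 ± 12.9 CPM with siKIFC1 (SD, n = 3), giving a log2 fold change of -0.28 ± 0.14 (SE; 95% interval -0.58 to 0.03). The adjusted p was 0.598 by Benjamini-Hochberg in edgeR's quasi-likelihood test and 0.0658 with the replicate block. Without siKIFC1 replicate 3, the log2 fold change was -0.43 and the adjusted p in edgeR 0.0437, the lowest of the alternatives, which reached up to 1.0. Without siKIFC1 replicate 2, it was -0.15, with an adjusted p in edgeR of 0.743.

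Of the other IAP genes, *BIRC2*, *BIRC3* and *BIRC6* differed by less than their error, and *NAIP* was barely detected. *BIRC2* and *BIRC3*, which encode the ubiquitin ligases cIAP1 and cIAP2, had log2 fold changes of 0.11 ± 0.12 (SE) and 0.04 ± 0.22 (SE). For *BIRC6*, the control libraries held 2161, 2073 and 3202 counts and the siKIFC1 libraries 1753, 1580 and 2970, a log2 fold change of -0.12 ± 0.20 (SE). In both groups replicate 3 was its highest library, and the groups overlapped. The IAP antagonists *DIABLO* and *HTRA2* had log2 fold changes of 0.11 ± 0.12 (SE) and -0.07 ± 0.16 (SE). Other annotated genes share 31.5% of the exonic bases of *DIABLO* on its own strand, and cover 32.3% of those of *HTRA2* on the opposite strand.

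*NAIP*, an IAP better known as a sensor subunit of inflammasomes, failed the filter on low counts. Counts were 17, 10 and 8 in the control libraries and 1, 4 and 1 in the siKIFC1 libraries. Each siKIFC1 library was below each control library. Summed over the libraries, 35 counts stood against 6, a depth-scaled ratio of 5.4 with control siRNA over siKIFC1 (95% exact interval 2.25 to 15.7, counting error only). Without the filter on low counts, the log2 fold change was -2.38 ± 0.66 (SE), with an adjusted p of 0.0404 by Benjamini-Hochberg in edgeR's quasi-likelihood test. Leaving out control replicate 3 or siKIFC1 replicate 1, 2 or 3 gave adjusted p values in edgeR of 0.3, 0.429, 0.118 and 0.133. Those fits kept the filter, so the filter and the set of libraries changed together. With 2 control and 0 siKIFC1 libraries past the count cutoff, *NAIP* entered them through the group in which it was high. The replicate block without the filter gave an adjusted p in edgeR of 0.0158. Of the 32-base words of the *NAIP* transcript, 91.6% occur on alternate sequences of GRCh38 and 83.5% elsewhere in the primary assembly, so reads may be split among near-identical copies. Their part in the result was not tested.

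An earlier scan of these same libraries picked out a pair of short words in 3′ UTRs, GAGATCT and GCAACC, so what follows is a description and supports nothing. The words were searched on the transcribed strand of the 3′ UTR of each canonical GENCODE 44 transcript, and they do not overlap one another. GAGATCT occurred in the 3′ UTRs of 2 of the 30 tested genes (6.67%), *XIAP* and *CFLAR*, against 8.96% of 12973 tested genes with a 3′ UTR. GCAACC occurred in 4 of the 30 (13.3%), *TNFRSF19*, *XIAP*, *CFLAR* and *TNFRSF10B*, against 23.2%. Sites of the genes discussed above are shown because *TNFRSF19* was the called gene and *XIAP* and *CFLAR* hold both words. The 6 GCAACC sites of *CFLAR*, that of *TNFRSF10B* and the GAGATCT site of *XIAP* are left out. Capitals mark the word, and each sequence is the plus strand of GRCh38.
TNFRSF19, chr13:23675790-23675813: atttcaagaGCAACCaagtaaagt
XIAP, chrX:123909097-123909120: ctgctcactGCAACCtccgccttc
CFLAR, chr2:201167694-201167718: tgtgtgagaGAGATCTtaactacct
CFLAR, chr2:201168182-201168206: cagcgagctGAGATCTtgccactgc
CFLAR, chr2:201176222-201176246: cccactcctGAGATCTttttgagaa

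The site of *TNFRSF19* begins 2419 bases after the stop codon, and the first of *CFLAR* 3730 bases after it. *CFLAR*, with 3 copies of GAGATCT and 6 of GCAACC, had a log2 fold change of -0.09 ± 0.12 (SE), and *XIAP*, with 1 copy of each, of -0.28 ± 0.14 (SE). The 3′ UTR of *TNFRSF1A* holds neither word. Over all tested genes, the median log2 fold change was -0.111 with GAGATCT and 0.018 without it, and 0.025 with GCAACC and 0.007 without it.

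Around the 34 genes, 89 further genes of the same pathways were examined in 7 lists, and 59 of them could be tested. None had an adjusted p under 0.05 by Benjamini-Hochberg in edgeR's quasi-likelihood test, whereas 2 were higher and 3 lower at an unadjusted p under 0.05, for which the shares of all genes are 4.72% and 4.55%. With the replicate block the adjusted p was under 0.05 for *TRAF4* and *TNFSF15*, against 5.83% of all genes. Both are among the genes that the study itself listed as lower in these libraries, so their direction is no independent evidence. The median log2 fold change of the 59 genes was 0.005, and 49 of them (83.1%) were within ±0.25.

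The ligands of the receptors were scarce. Of 18 TNF superfamily ligand genes, 10 had 3 or fewer counts in every library, and *TNF*, *LTA*, *LTB* and *TNFSF18*, the ligand of GITR, had 0 counts in all libraries. *FASLG*, the ligand of FAS, had 0 counts in each control library and 2, 1 and 0 in the siKIFC1 libraries. *TNFSF10*, which encodes TRAIL, was present, with 98, 66 and 103 counts against 104, 71 and 119, a log2 fold change of 0.25 ± 0.22 (SE). The groups of *TNFSF10* overlapped.

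Among these ligands, *TNFSF15*, which encodes the ligand of *TNFRSF25*, had 36, 16 and 20 counts in the control libraries against 11, 9 and 7 in the siKIFC1 libraries. All 3 control libraries but 1 siKIFC1 library passed the count cutoff, so the gene was tested through the group in which it was high. The *TNFSF15* log2 fold change was -1.29 ± 0.41 (SE), with an adjusted p of 0.257 by Benjamini-Hochberg in edgeR's quasi-likelihood test and of 0.0351 with the replicate block. *TNFSF13B*, which encodes the B cell factor BAFF, had 52, 39 and 59 counts against 55, 70 and 76, a log2 fold change of 0.54 ± 0.22 (SE) and an adjusted p of 0.471 in the same edgeR test. Neither set of groups overlapped after scaling.

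All 18 TRAF, ubiquitin ligase and kinase genes that relay TNF receptor signals were tested. At an unadjusted p under 0.05, 1 was higher and 2 were lower, against 4.72% and 4.55% of all genes tested. *TRAF4* counts were 1645, 1832 and 1928 in the control libraries and 1134, 1095 and 801 in the siKIFC1 libraries, with no overlap. Its log2 fold change was -0.72 ± 0.15 (SE), with an adjusted p of 0.0513 by Benjamini-Hochberg in edgeR's quasi-likelihood test and of 2.84e-05 with the replicate block. *TRAF3*, a brake on alternative NF-kB signaling, had a log2 fold change of -0.29 ± 0.13 (SE), and *TAB2*, an adaptor of the kinase TAK1, of 0.23 ± 0.10 (SE), with adjusted p of 0.492 and 0.54 in the same edgeR test.

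None of 7 other tested TNF receptor genes, 3 other caspases, 15 caspase regulators and 10 NF-kB subunits and targets had an unadjusted p under 0.05 in that test. The NF-kB targets *NFKBIA* and, from the TRAF list, *TNFAIP3* had log2 fold changes of 0.05 and -0.01. Over the 10 NF-kB subunits and targets the log2 fold changes ran from -0.24 to 0.81, with 7 above 0 and 3 below. *CXCL8* was the highest, at 0.81 ± 0.40 (SE), and its groups overlapped. The adjusted p of *CXCL8* was 0.583 in that test and 0.136 with the replicate block. The other IAP gene tested, *BIRC5*, which encodes survivin, had 4044, 3425 and 3461 counts in the control libraries against 3369, 2761 and 2636 in the siKIFC1 libraries. At 83.6 ± 10.5 CPM per kb in the control libraries (SD, n = 3), it stood above each of the 5 IAP genes of the set. The log2 fold change of *BIRC5* was -0.21, with an adjusted p of 0.717 by Benjamini-Hochberg in edgeR's quasi-likelihood test.

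**Figure D4:**
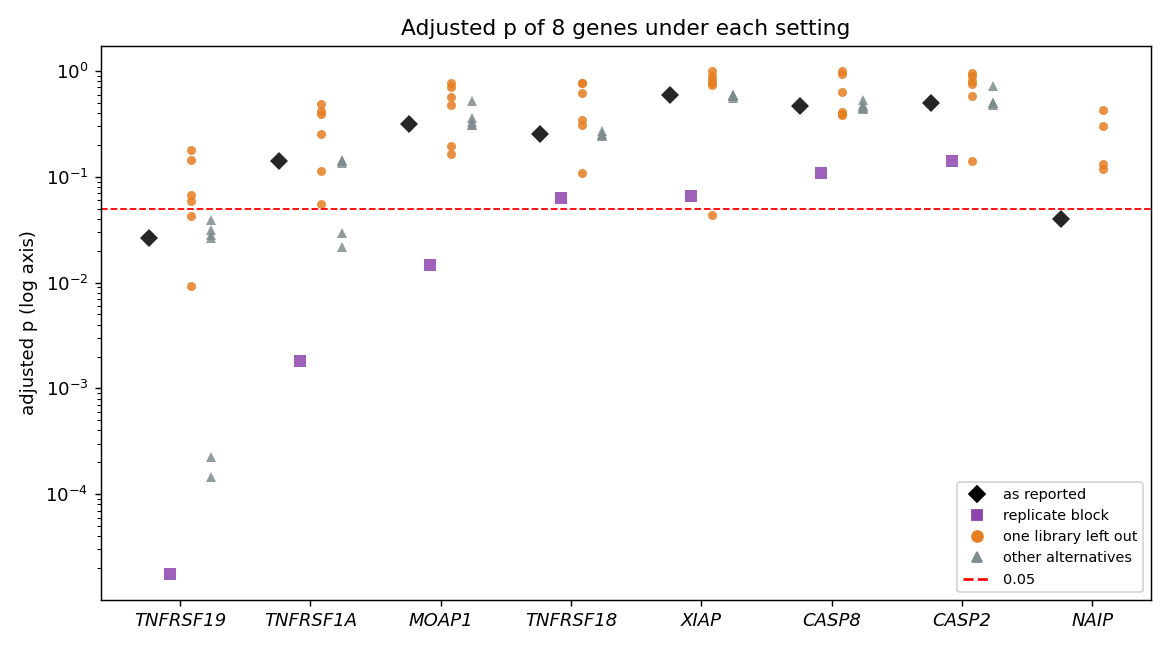
Adjusted p (log axis) of 8 genes in the test as reported (black), with the replicate block (purple), with each library left out (orange) and under the other alternatives (gray), with a dashed line at 0.05; *NAIP* is shown from the fits in which it could be tested, the black point being the fit without the filter on low counts, and the fit that joins the block to no filter is not drawn. *TNFRSF19* lies below the line in most fits, *TNFRSF1A* and *MOAP1* go below it with the replicate block, and *TNFRSF18*, *CASP8* and *CASP2* lie above it in each fit shown.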

How the data were processed

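RNA was sequenced from H146 cells in 3 control siRNA and 3 siKIFC1 libraries. Per the labels' processing notes and the study's methods, the authors aligned reads to GRCh38 with HISAT2 2.2.1 and counted them with featureCounts 2.0.8, and they deposited whole read counts per gene, without normalization. The notes also name DESeq2 1.46.0 and R 4.4.2. The annotation, the strand setting and the handling of multi-mapping reads are not given in the sources used here.

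The test was edgeR 4.0.16 run under R 4.3.3 (low counts removed by filterByExpr, *KIFC1* kept, TMM scaling, robust quasi-likelihood fit, p-values adjusted by Benjamini-Hochberg over 14777 genes, threshold 0.05). The SE of a log2 fold change is its size over the root of F. Symbols were given to 27745 gene IDs. Alternatives were DESeq2 1.42.0 (Wald test, and its size factors in edgeR), library size only, no filter, limma-voom (limma 3.58.1), a minimum of 10 counts in each of the libraries, the replicate block and each library left out. The replicate block without the filter was chosen after the data were seen. Figures and tables used matplotlib 3.10.9, scipy 1.17.1, pandas 2.3.3 and numpy 2.4.6 under Python 3.11.15.

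Both groups share replicate numbers. After removal of the group means, the correlation over 12839 genes was 0.446, 0.355 and 0.435 for the same number and -0.397 to -0.0225 for different numbers. Removal of the group means itself pushes the values for different numbers down when those for the same number are high. The numbers were taken to pair the libraries, but the main test did not use the pairing, which entered only as the replicate block. The labels and methods do not say what the numbers mark.

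Transcript lengths, positions, 3′ UTRs of at least 50 bases and overlapping exons came from GENCODE 44 on GRCh38. Copies were sought by 32-base words. In simulated data for this comparison, 159 of 200 genes (79.5%) given a log2 change of 1 were called among 14777, with 7 unchanged genes called. The 200 genes were drawn from those with a mean above 1 CPM, and no replicate effect was simulated. The rate therefore does not cover genes below that level.

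The 34 genes, the lists and the words were chosen with earlier results of these data known. Each of the 34 is named, and those with an unadjusted p under 0.05 with or without the replicate block, or left out by the filter, were given in full. Genes of other lists were named at an unadjusted p under 0.05, or as ligands of the receptors. Some genes and sequences are not reported here. *BIRC5*, *NFKBIA*, *TNFAIP3* and *CXCL8* were named outside this rule.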

Additional observations from a re-analysis of the deposited data

How the results depend on the processing

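With adjusted p under 0.05, the 1 gene higher and 0 lower (0.325% and 0.372% of all genes tested) became 2 and 1 with the replicate block (2.75% and 3.07%), 2 and 2 with the replicate block without the filter on low counts (1.77% and 2.25%), 1 and 1 with DESeq2's Wald test (0.979% and 1.14%), and 1 and 2 without the filter (0.521% and 0.619%). With 1 library left out, 0 to 1 were higher and 0 to 1 lower (0.0603% to 1.3% and 0.1% to 1.83% of all genes). With unadjusted p under 0.05, the 4 genes higher and 2 lower became 4 and 4 with the replicate block without the filter (5.49% and 6.69% of all genes), and 2 to 4 and 1 to 6 with 1 library left out (2.99% to 8.63% and 2.63% to 9.93%). Of the other pathway genes, 2 were higher and 3 lower at an unadjusted p under 0.05 (4.72% and 4.55% of all genes). Higher genes numbered 0 with DESeq2 (3.98%), 1 with its size factors (4.55%), 1 by library size only (4.21%) and 4 without the filter (3.7%). They numbered 4 with the replicate block (8.51%) and 5 with the replicate block without the filter (5.49%), and lower genes 7 and 8 in these 2 settings (9.2% and 6.69%). With 1 library left out, 1 to 4 were higher and 1 to 8 lower (2.99% to 8.63% and 2.63% to 9.93%). The 8 lower genes came without siKIFC1 replicate 3, against 9.93% of all genes. The median log2 fold change of 0.043 became 0.029 by library size only, 0.037 without the filter, 0.03 with at least 10 counts in every library, 0.033 with limma-voom, 0.037 with the replicate block, 0.033 with the replicate block without the filter, and 0.023 to 0.078 with 1 library left out. The cause of these shifts was not tested. The replicate block changed the call of *TNFRSF1A* and *MOAP1* and of no other of the 8 genes described in full. Of 102 log2 fold changes of these 8 genes under the alternatives, 0 reversed direction, 8 lost the threshold and 7 gained it. The losses of *NAIP* lay in fits that differ from its reference fit in the filter as well as in 1 library. *CASP10*, *RIPK3*, *EDA2R*, *NAIP* and *TNFRSF18* had few or no counts, so a change was not detectable or rested on few counts. The cause of their low counts was not tested.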

Other observations

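Among the 30 tested genes, 9 had their highest scaled level in replicate 3 of both groups, against 22.1% of all genes tested. They were *APAF1*, *BIRC3*, *BIRC6*, *CFLAR*, *MOAP1*, *TNFRSF10A*, *TNFRSF10C*, *TNFRSF19* and *XIAP*. For replicate 1 and for replicate 2 the number was 4 of 30, against 15% and 15.1% of all genes. The libraries hold no label that says what the number marks.

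*CHGA*, which encodes the granule protein chromogranin A, was counted 147, 104 and 142 times in the control libraries and 145, 818 and 482 times in the siKIFC1 libraries. The siKIFC1 library with the highest *CHGA* count, replicate 2, also had the highest share of mitochondrial counts (13.1%). These values were noticed after the data were examined, and their part in the results was not tested.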
